A study of Mus musculus with 91 samples.

Results

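The genes described here carry new proteins into and out of the endoplasmic reticulum (ER), or run the unfolded protein response. They were chosen by symbol: signal recognition particle (Srp), translocon and signal peptidase (Sec61, Sec62, Sec63, Ssr, Spcs, Sec11), ER chaperones (Hspa5, Hsp90b1, Calr, Canx), protein disulfide isomerases (Pdia genes, P4hb), COPII coat and exit sites (Sec13 to Sec31, Mia3), COPI coat (Cop), p24 cargo proteins (Tmed), KDEL receptors (Kdelr) and regulators of the response (Xbp1, Atf4, Atf6, Ern1, Ddit3, Creb3l). The COPII group was set by symbol and also holds Sec22a, Sec22b and Sec22c, which are not coat subunits. In all, the symbols matched 76 of 16580 genes in the count table, each with at least 10 counts over the 91 cells. Levels and differences were not part of the rule. By annotation 75 of the 76 are protein coding and 1, Tmed10-ps, is a processed pseudogene.

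The study sorted single stromal cells from the marrow of crushed bones of C57BL/6 mice and made a Smart-seq2 library, which covers whole transcripts, from each cell. All cells were sorted as VCAM1+ and Vibrant dye+, and as negative for CD45, Ter119, CD41 and CD71, which mark blood cells. The groups were 39 VCAM1+CD61+ cells, 40 VCAM1+CD61- cells and 9 VCAM1+ cells not split by CD61, the integrin beta 3 chain. The remaining 3 cells had titles and gate labels that disagree and entered no comparison. The labels give no age, sex, treatment, genotype or animal. With no animals to serve as replicates, the values of each gate are given without a test. The CD61+ gate filled 17 wells of its first plate and 22 of its second, and the CD61- gate 24 and 16. Because no plate held cells of more than 1 gate, effects of plate and of gate cannot be told apart.

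Secreted and membrane proteins enter the ER through the Sec61 channel while they are made, guided there by the signal recognition particle. Inside, BiP (Hspa5), GRP94 (Hsp90b1), calreticulin (Calr), calnexin (Canx) and the disulfide isomerases fold them. COPII vesicles carry folded cargo to the Golgi, and COPI vesicles return escaped ER proteins that KDEL receptors have bound. When unfolded proteins build up, the sensors IRE1 (Ern1), ATF6 and PERK raise chaperone and transport genes through XBP1, ATF6 and ATF4. Osteoblasts, which lay down collagen, and stromal cells that secrete CXCL12 and matrix proteins both depend on this machinery.

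The ER stress element (CCAAT, then 9 bases of any kind, then CCACG, on either strand) is the promoter sequence through which ATF6 and XBP1 are known to act on chaperone genes. Promoter windows of 300 bases were available from RefSeq for 64 of the 76 genes (build GRCm38.p6, 250 bases before to 50 after the start), of 27025 genes in that table. The element was found in 5 of the 64 (7.81%), which were Hspa5, Hsp90b1, Calr, Canx and Pdia6, and in 37 of all 27025 genes (0.137%). These 5 are shown because they are all 4 ER chaperones and 1 disulfide isomerase, and their levels in single cells are compared further on. Each sequence runs 5′ to 3′ on the strand of the gene, and capitals mark the element. A match describes letters in a window and does not show that a factor binds there.

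Hspa5, chr2:34771995-34772073, plus strand, the element 65 to 47 bases upstream of the start:
Hspa5: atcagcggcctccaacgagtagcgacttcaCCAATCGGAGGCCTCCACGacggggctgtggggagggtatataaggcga
Hsp90b1, chr10:86705503-86705686, minus strand, with 2 copies, 212 to 194 and 107 to 89 bases upstream:
Hsp90b1: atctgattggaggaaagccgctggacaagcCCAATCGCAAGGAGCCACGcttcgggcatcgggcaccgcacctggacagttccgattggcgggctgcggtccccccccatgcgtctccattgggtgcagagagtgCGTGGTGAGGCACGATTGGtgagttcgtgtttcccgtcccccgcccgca
Calr, chr8:84847045-84847123, minus strand, 162 to 144 bases upstream:
Calr: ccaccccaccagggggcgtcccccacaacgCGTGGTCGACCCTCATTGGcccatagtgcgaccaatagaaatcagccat
Canx, chr11:50325770-50325848, minus strand, 145 to 127 bases upstream:
Canx: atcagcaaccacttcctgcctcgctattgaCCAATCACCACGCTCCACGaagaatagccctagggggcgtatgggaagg
Pdia6, chr12:17266461-17266539, plus strand, 98 to 80 bases upstream:
Pdia6: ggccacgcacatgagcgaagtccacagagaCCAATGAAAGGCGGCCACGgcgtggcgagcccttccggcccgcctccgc

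Across all 91 cells the counts summed to 210647895, with a median of 2060906 per cell. Median counts per cell were 1887600 in CD61+, 2368300 in CD61- and 4004900 in VCAM1+ cells. Mitochondrial genes took a median of 1.52% of the counts in CD61+ cells and 1.06% in CD61- cells. Immediate early genes respond to tissue dissociation. In CD61+ cells 7 of 15 were lower and 0 higher, counted where the plates separate the gates (Fos at 3087 CPM against 6930). Of cytosolic heat shock genes 4 of 9 were lower and 1 higher (Hspa8 at 998 against 1768). Among all genes tested 17.8% were lower and 20.0% higher. The plates differed, with Fos at 4148 and 1987 CPM against 4476 and 10237. Over plate pairs the median log2 ratio of the immediate early list ran from -1.97 to 0.01. The part of the immediate early and heat shock differences in the results below was not tested. The ratio intervals given are exact 95% intervals of counting error only, because Smart-seq2 reads are not independent molecules.

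Summed over the 88 cells with an assigned gate, the 76 genes took 14909 CPM, counts per 1000000. The translocon and signal peptidase genes held 27.3% of this, the 4 ER chaperones 19.6%, the disulfide isomerases 12.9% and the p24 proteins 11.2%. The COPI coat held 8.10%, the signal recognition particle 6.81%, the COPII coat 6.48%, the regulators 4.29% and the KDEL receptors 3.30%. Levels of different genes are compared per kilobase of transcript. On that scale the small channel subunit Sec61b was highest at 1098 CPM per kb, before the translocon-associated protein Ssr2 at 865, the channel subunit Sec61g at 629 and the p24 protein Tmed10 at 599.6. Srp14, which with Srp9 forms the part of the particle that pauses translation, stood at 554. Hspa5 stood at 531 and the signal peptidase subunit Spcs1 at 521. Hspa5 ranked 270 of 15726 genes with a known length, so BiP mRNA was abundant in these cells.

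The other folding enzymes followed at 391 CPM per kb for P4hb, 324 for Calr, 215 for Pdia6, 186 for Pdia3 (ERp57), 164 for Hsp90b1 and 73.9 for Pdia4. Calnexin, the membrane-bound relative of calreticulin, was at 20.8. In the coats, the small COPI subunits Copz2 (435) and Cope (308) lay above the outer COPII subunits Sec13 (121) and Sec31a (39.3). The receptors were at 135 for Kdelr2, 96.7 for Kdelr1 and 82.2 for Kdelr3. Among the regulators, Xbp1 was highest at 204, followed by Ddit3 (CHOP) at 132 and Atf4 at 97.7, and Creb3l1 (OASIS), which activates collagen and secretory genes in osteoblasts, was at 24.1. The levels of the regulators are those of mRNA, and say nothing of Xbp1 splicing or Atf6 cleavage, which this table does not resolve.

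Detection varied as widely as level. A count was seen in at least 80% of the 88 cells for 23 of the 76 genes and in under 20% for 3. These 3, all in the COPII group by symbol, were Sec22a (4622 counts in 16 cells), Sec16b (777 counts in 14 cells) and Sec31b (545 counts in 5 cells, 58.9% of them from 1 cell). Srp54a, Srp54b and Srp54c are near-identical copies, and Tmed10 shares its sequence with Tmed10-ps, so the division of counts within each of these families is uncertain.

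The first comparison asked how the pathway differs between the CD61+ and CD61- gates. Both CD61+ plates lay above both CD61- plates for 5 of 8 COPI genes, 5 of 15 tested COPII genes and 2 of 3 KDEL receptors, which serve vesicle transport and retrieval. Copg1 of the COPI group and Sec22a, placed in the COPII group by symbol, were lower on both. The summed chaperones did not follow, at 2727 CPM in CD61+ and 3368 in CD61- cells. Sec23a, Creb3l1, Copb2, Kdelr1 and Copa had log2 ratios from 1.15 to 2.10, and the stress factor Ddit3 was 3.33-fold lower in CD61+ cells. A gene was counted as higher or lower only when its plates separated the gates in this way. By that rule 22 of 75 tested members (29.3%) were higher in CD61+ cells, against 20.0% of all 14063 genes tested. Lower in CD61+ cells were 7 members (9.33%), against 17.8% of all genes. Sec31b had too few cells to be tested. Without 5 cells that also carried endothelial genes (described with the cell classes), 19 members (25.3%) were higher and 6 (8.0%) lower. Of all genes 20.4% were then higher and 18.2% lower. Among the 19 were 4 COPI genes, 4 COPII genes and 1 KDEL receptor. The same cell of the first CD61+ plate held 23.7% of the Sec23a, 24.3% of the Creb3l1 and 17.5% of the Kdelr3 counts over the 88 cells. Whether the plates of these genes still separate without that cell was not tested.

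By the GENCODE vM21 annotation of build mm10, several members described in detail lie at chr12:58958383-59012017, minus strand (Sec23a), chr2:91982328-92024502, minus strand (Creb3l1), and chr7:45872772-45883732, plus strand (Kdelr1). Copa lies at chr1:172082529-172122330, plus strand, P4hb at chr11:120560298-120573253, minus strand, and Ddit3 at chr10:127290774-127296288, plus strand. Counts refer to whole genes, so no exon is singled out.

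The median log2 ratio over the members was 0.17, with 0.03 to 0.43 over the pairs of plates, against 0.01 over all genes. The gap depended on how cells were weighted: with the mean CPM over cells in place of summed counts the medians were 0.09 and 0.08, with 19 members (25.3%) higher against 21.0% of all genes. With cells thinned to 500000 counts the medians were 0.15 and 0.05. Among genes at 50 CPM or more, 13 of 52 members (25%) were higher against 18.7%, and 4 (7.69%) were lower against 24.6%. The members' summed level was nearly the same, at 15329 CPM in CD61+ and 14645 in CD61- cells, with plates at 15600 and 15047 against 15802 and 13086. Single cells ran from 9067 to 29710 CPM in the CD61+ gate (median 13837) and from 6172 to 21941 in the CD61- gate (median 14482), so the gates overlapped almost wholly. CD61+ cells had a count for a median of 53 of the 76 genes and CD61- cells for 48. Over the whole table CD61+ cells also had more genes with a count, at a median of 5957 against 5042.5, and the part of this in the members' values was not tested. A gate holds several cell types, so more cells of a type and more RNA per cell cannot be told apart in its sums.

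**Figure D1:**
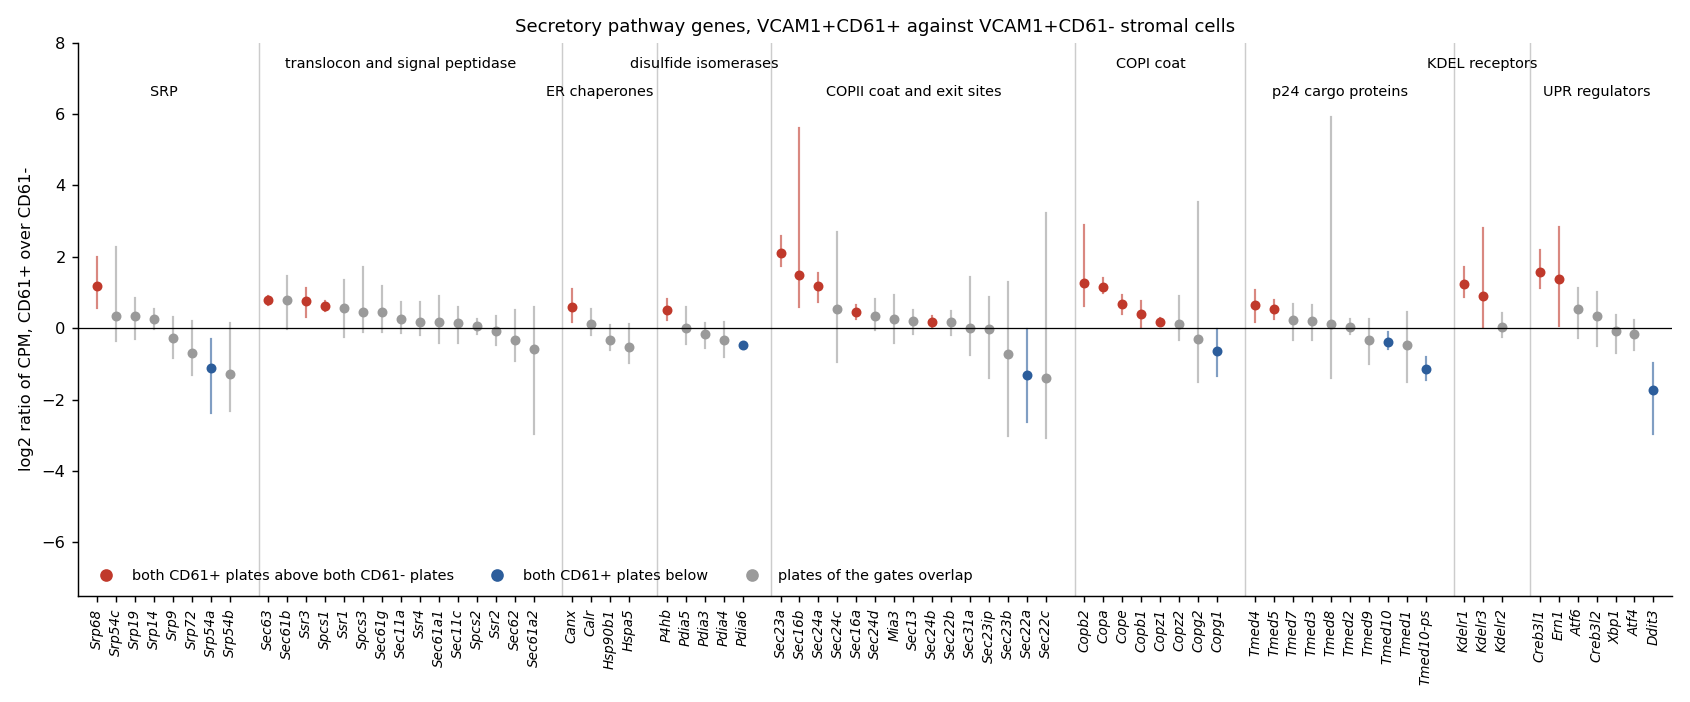
Log2 ratio of summed CPM, CD61+ over CD61- (vertical axis), for the 75 tested genes grouped by role. Points are the ratios of the gate sums, lines span the ratios of the pairs of plates, and colour shows whether the plates separate the gates; 22 genes lie wholly above 0 and 7 wholly below.

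In the entry machinery, 3 of 15 translocon and signal peptidase genes were higher in CD61+ cells, the same 20.0% as among all genes, and 0 lower. Their summed level was 1.22-fold that of CD61- cells (log2 ratio 0.29, 0.20 to 0.41 over plate pairs). Sec63, which recruits BiP to the channel, had a log2 ratio of 0.79, the translocon-associated Ssr3 0.77 and Spcs1 0.63. Sec61b had a ratio of 0.78, but its plates (1020.5 and 615 CPM against 367 and 629) overlapped. The other 11 ranged from -0.57 for Sec61a2 to 0.56 for Ssr1, also with overlap. Of the signal recognition particle only Srp68 was higher (log2 ratio 1.17, plates 90.4 and 63.8 against 42.9 and 22.7 CPM) and only Srp54a lower (-1.12). The other 6 ranged from -1.28 for Srp54b to 0.34 for Srp19 with overlapping plates, and the group as a whole stood at 976 CPM in each gate.

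The chaperones went separate ways. Hspa5 reached 1281 and 1601 CPM in the CD61+ plates and 2500.1 and 1484 in the CD61- plates. Its cells ran from 22.3 to 4774 CPM (median 1296) in CD61+ and from 0 to 6019 (median 1606) in CD61- cells. The high CD61- plate set its log2 ratio of -0.52, and the plates overlapped. Hsp90b1 behaved alike, at 406 and 404 CPM against 611 and 379 (-0.34), and Calr differed little (0.12). Under DESeq2 size factors both Hspa5 and Hsp90b1 had separated plates and were lower in CD61+ cells, and under TMM scaling Hsp90b1 did. Canx was the only chaperone of the 4 with separated plates: 110 and 82.6 CPM in CD61+ against 72.9 and 50.9 in CD61- cells, a ratio of 1.52 (1.47 to 1.57).

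The disulfide isomerases moved in both directions with no change in their sum (2014 and 2013 CPM). P4hb, which is both an isomerase and the beta subunit of the collagen prolyl hydroxylase, was at 974 and 790 CPM in the CD61+ plates and 672 and 548 in the CD61- plates. Cells of the CD61+ gate ran from 272 to 3129 CPM (median 771) and of the CD61- gate from 0 to 2757 (median 483). All 39 CD61+ cells had P4hb counts, and both of their plates were higher, by 1.43-fold overall (1.41 to 1.44). Pdia6, which works with BiP, was lower in CD61+ cells, at 423 and 414 CPM against 569 and 586. Its log2 ratio was -0.46, and it stayed between -0.51 and -0.34 when any single cell was left out. Pdia3 (-0.18), Pdia4 (-0.33) and Pdia5 (-0.01) had overlapping plates.

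The summed COPII genes had log2 ratios from -0.14 to 0.65 over the pairs of plates. Among them Sec23a, an inner coat subunit needed for export of procollagen, differed most. It was at 57.5 and 47.2 CPM in the CD61+ plates and at 14.1 and 9.58 in the CD61- plates. Cells ran from 0 to 416 CPM (median 8.63) in CD61+ and from 0 to 107 (median 0) in CD61- cells. Both CD61+ plate sums were thus above both CD61- plate sums, although single cells overlapped. A single cell of the first CD61+ plate held 23.7% of the Sec23a counts over the 88 cells. Whether the plates still separate without that cell was not tested. The ratio of sums was 4.30 (4.02 to 4.6), and its log2 value of 2.10 fell to 1.38 without the cell that moved it most. The inner coat genes Sec24a (1.19) and Sec24b (0.17) and the exit site scaffolds Sec16b (1.48) and Sec16a (0.46) were also higher, while Sec22a (-1.31) was lower. Sec13, Sec22b, Sec31a, Sec24d and Mia3 (TANGO1, the receptor that loads procollagen) had overlapping plates, with log2 ratios from 0.01 to 0.34. The other overlapping COPII genes were Sec24c (0.53), Sec23ip (-0.03), Sec23b (-0.72) and Sec22c (-1.40).

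The COPI coat was 1.32-fold higher in sum (1310.3 against 996 CPM, log2 ratio 0.40, 0.24 to 0.62 over plate pairs). Copa was at 128 and 130 CPM in the CD61+ plates and at 64.9 and 49.2 in the CD61- plates. Its cells ran up to 319 CPM (median 105) and up to 265 (median 24.9). The CD61+ plates were nearly equal and both above the CD61- plates, by 2.21-fold (2.14 to 2.29). Copb2 was at 75.4 and 68.6 against 45.0 and 10.3 CPM, a ratio of 2.39 (2.28 to 2.50). The low second CD61- plate carries much of this, as the log2 ratio of 1.26 became 2.81 without the first CD61- plate. Cope (0.68), Copb1 (0.39) and Copz1 (0.18) were higher too, and Copg1 was lower (-0.64), by a narrow gap between 61.5 and 62.0 CPM in the nearest plates that TMM and DESeq2 scaling closed. Copz2 (0.12) and Copg2 (-0.29) had overlapping plates.

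The KDEL receptors, which COPI vesicles carry back, were 1.47-fold higher in sum (581 against 396 CPM). Kdelr1 was at 200.9 and 163 CPM in the CD61+ plates and at 89.9 and 60.8 in the CD61- plates. Cells ran up to 733 CPM (median 147) in CD61+ and up to 430 (median 0) in CD61- cells. Many CD61- cells had no Kdelr1 count. With each cell thinned to 500000 counts, a Kdelr1 count was seen in 28 of 39 CD61+ cells (71.8%, exact Clopper-Pearson interval 55.1 to 85.0) and in 16 of 40 CD61- cells (40%, 24.9 to 56.7). The ratio was 2.35 (2.29 to 2.42). Kdelr3 was higher (188 and 134 against 131 and 26.6 CPM), by a narrow gap, and Kdelr2 was level (log2 ratio 0.03). A single cell of the first CD61+ plate, at 777 CPM of Kdelr3, held 17.5% of the Kdelr3 counts over the 88 cells. Whether the Kdelr3 plates still separate without that cell was not tested.

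Of the 53 members with a count in under 80% of cells, 45 had a count in a larger share of thinned CD61+ cells and 8 in a larger share of thinned CD61- cells. The same share over all genes is not given here. Before thinning, CD61+ cells had more genes with a count over the whole table (median 5957 against 5042.5). The counts of 45 and 8 are therefore not shown to be particular to the members. Sec23a had a count in 23 CD61+ cells (59.0%, 42.1 to 74.4) and 12 CD61- cells (30%, 16.6 to 46.5), with intervals that overlap. Copb2 had a count in 26 and 16 cells, Srp68 in 25 and 15, and the pseudogene Tmed10-ps in 14 and 25. Cells of a plate are not replicates, so these counts are descriptions.

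Of the 10 p24 proteins, which sort cargo into COPI and COPII vesicles, Tmed4 (0.66) and Tmed5 (0.54) were higher in CD61+ cells. Tmed10, the most abundant, was lower at 491 and 503 CPM against 741 and 542. Its log2 ratio of -0.40 became -0.13 without the first CD61- plate. Tmed10-ps was also lower (-1.13). The other 6 had overlapping plates and log2 ratios from -0.47 for Tmed1 to 0.22 for Tmed7.

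Of the 7 regulators of the unfolded protein response, 2 (28.6%), Creb3l1 and Ern1, were higher in CD61+ cells, against 20.0% of all genes. Lower was 1 (14.3%), Ddit3, against 17.8% of all genes. Creb3l1 was at 98.0 and 76.1 CPM in the CD61+ plates and at 34.8 and 21.6 in the CD61- plates. Its cells ran from 0 to 584 CPM (median 1.59) and from 0 to 200.1 (median 0). Both CD61+ plates were above both CD61- plates, by 2.99-fold (2.86 to 3.13), and a count was seen in 20 CD61+ and 18 CD61- cells. The cell at 584 CPM was on the first CD61+ plate and held 24.3% of the Creb3l1 counts over the 88 cells. Whether the plates still separate without that cell was not tested. The log2 ratio of 1.58 lay between 0.79 and 1.83 when any single cell was left out.

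Ddit3, the pro-apoptotic factor downstream of PERK and ATF4, was at 41.2 and 12.2 CPM in the CD61+ plates and at 95.8 and 81.4 in the CD61- plates. A count was seen in 12 CD61+ and 19 CD61- cells, and the highest cells reached 399 and 575 CPM. The CD61- plates were both higher, and the log2 ratio of -1.73 became -2.88 without the first CD61+ plate. The sensor gene Ern1 was low throughout (13.1 against 5.10 CPM) and higher in CD61+ cells by a narrow gap of plates (9.14 against 8.74), which closed under TMM and DESeq2 scaling. Xbp1 (376 and 222 against 289 and 358 CPM), Atf4 (173 and 131 against 148 and 199.6) and Atf6 (log2 ratio 0.55) and Creb3l2 (0.33) had overlapping plates. The transcripts of Xbp1 and Atf4 thus did not separate the gates.

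**Figure D2:**
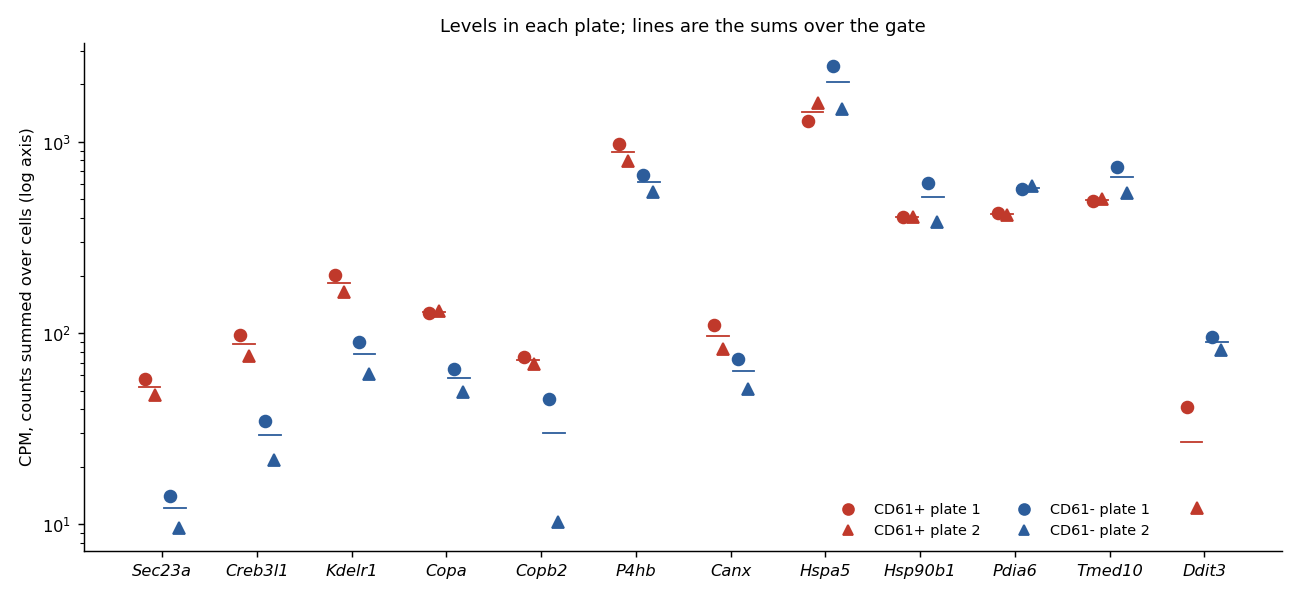
CPM in each plate (log axis) for 12 members, CD61+ in red and CD61- in blue; circles and triangles are the plates and short lines the sums over each gate. Sec23a, Creb3l1, Kdelr1, Copa, Copb2, P4hb and Canx are higher in both CD61+ plates and Pdia6, Tmed10 and Ddit3 lower, while the plates of Hspa5 and Hsp90b1 overlap.

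Genes of the same pathway outside the symbol rule were read from lists of 185 measured genes. Their counts stand beside 20.0% higher and 17.8% lower among all genes. Procollagen folding genes were higher for 6 of 19 and lower for 0, with a list median of 0.01. They included Serpinh1 (HSP47, the collagen chaperone, 1478 against 1039 CPM) and the collagen cross-linking enzyme Plod2 (72.2 against 31.7). The peptidyl-prolyl isomerases Fkbp10 (237 against 155) and Fkbp14 (47.4 against 11.1) were higher as well. The abundant genes Ppib (log2 ratio -0.01), Fkbp7 (-0.01) and Crtap (0.33) of this list had overlapping plates. The oligosaccharyltransferase, which attaches sugars to entering proteins, had 3 of 12 (25%) higher and 0 lower. COPII regulators and cargo receptors had 3 of 12 higher and 0 lower, with the cargo receptor Surf4 at 301 against 185 CPM. Of COPI and Golgi tethering genes 3 of 18 (16.7%) were higher and 2 lower, and Arf1, the GTPase that recruits COPI, was at 288 against 171. The collagen gene Col1a1, a main cargo, was at 2274 CPM in CD61+ and 111 in CD61- cells. Another cargo gene, Cxcl12, went the other way, at 10033 against 21914 CPM.

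ER-associated degradation genes were lower in CD61+ cells for 4 of 17 (23.5%) and higher for 1, with a median log2 ratio of -0.35. Herpud1, a target of the unfolded protein response, was at 81.0 CPM against 161. Oxidative folding genes were lower for 3 of 11 (27.3%) and higher for 1 (median -0.37). The co-chaperones of BiP had 2 of 12 higher and 1 lower (median 0.02), and the PERK and ATF4 branch 4 of 15 higher and 2 lower. The glycoprotein folding cycle had 2 of 8 each way, and sensor processing genes had 2 higher and 3 lower of 6. Other membrane insertion genes had 2 higher and 3 lower of 12, and secretory cargo genes 4 higher and 8 lower of 20. None of these counts was tested.

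The second comparison set cell classes against each other within plates. Cells were clustered without the 76 genes and without the listed pathway genes, so that the members did not form the classes. On the 4 plates this gave 25 osteolineage-like cells and 54 CAR-like cells, named after CXCL12-abundant reticular cells. The osteolineage-like cells numbered 6 and 13 on the CD61+ plates but only 3 on each CD61- plate. They included 5 cells that a clustering with all genes placed in an endothelial group, and these are called mixed cells here. In osteolineage-like cells other than these, the endothelial genes Cdh5, Kdr, Tek, Emcn, Egfl7, Plvap and Esam were at 0, while the sum of the endothelial list reached 19768 CPM in the mixed cells. The class counts, the summed roles and the leading genes are given with the mixed cells and without them, the latter chosen after seeing the data.

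Osteolineage-like cells had about as much of the pathway in sum (14502 against 15189 CPM). A gene was counted only if its ratio had the same sign on all 4 plates. By that rule 3 of 75 members (4.0%) were higher in osteolineage-like cells, against 3.41% of all genes. Lower were 10 (13.3%), against 17.1%. Without the mixed cells 2 were higher, against 2.64% of all genes, and 10 lower, against 21.3%. Both times Ddit3 and Spcs2 were higher, and Calr, Hsp90b1, Pdia6, Sec61a2, Srp54c and Tmed10 lower. Sec22c (higher) and Hspa5, Copb2, Ssr3 and Sec22b (lower) were counted with the mixed cells only, and P4hb, Sec63, Creb3l2 and Tmed5 (lower) without them only. Under TMM or DESeq2 scaling, with the mixed cells in, 2 members (2.67%) were lower, Pdia6 and Srp54c, against 13.5% and 12.6% of all genes.

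All genes had a median log2 ratio of -0.35 in this comparison (-0.48 without the mixed cells). The cargo gene Spp1 took 125910 CPM in osteolineage-like and 2613 in CAR-like cells. Ratios are therefore given below relative to that median, which does not depend on the scaling. The members' median was then 0.34 above that of all genes (0.56 without the mixed cells). That gap was 0.12 without the first CD61+ plate, 0.16 with 20 neighbours in the clustering and 0.21 with the mean CPM over cells. The KDEL receptors' summed level was 1.07 above it (1.28 without), the translocon and signal peptidase 0.63 (0.83), COPI 0.51 (0.68) and COPII 0.45 (0.59). The regulators were 0.57 above (0.55), the p24 proteins 0.18 (0.29), the signal recognition particle 0.17 (0.20) and the disulfide isomerases 0.03 (0.22). The chaperones were below the median of all genes, at -0.32, and at -0.10 without the mixed cells. The plates differed in these sums. Before any median was subtracted, log2 ratios on single plates ran from -0.57 to 1.11 for the KDEL receptors, from -0.64 to 0.47 for the translocon group, from -0.96 to 0.54 for COPII and from -0.33 to 0.16 for COPI. The summed chaperones were below 0 on each plate, from -1.34 to -0.19. By the rule of equal signs 0 of 3 KDEL receptors, 0 of 8 COPI, 1 of 15 COPII and 1 of 15 translocon genes were higher, and 3 of 4 chaperones, 1 COPI, 1 COPII and 2 translocon genes lower.

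Hspa5 was at 1263, 1369, 1151 and 621 CPM in osteolineage-like cells of the 4 plates, CD61+ plates first. In CAR-like cells of the same plates it was at 1299, 1992, 2707 and 1683. It was lower in osteolineage-like cells on each plate, though by little on the first, and relative to all genes its log2 ratio was -0.43. Without the mixed cells Hspa5 no longer had the same sign on all plates, and its relative ratio was -0.18. Pdia6 was at 356, 358, 262 and 298 CPM against 490, 508, 616 and 652, lower on each plate with and without the mixed cells (relative ratios -0.46 and -0.34). Hsp90b1 was at 303 against 546 CPM in sum (-0.50 and -0.26 relative). Calr, at 620 against 822 CPM, stood at -0.06 and 0.08 relative to all genes, so its direction depended on the scaling and on the mixed cells. Tmed10 was likewise near the median of all genes, at -0.11 and -0.03. P4hb, counted as lower without the mixed cells, then had nearly equal sums (751 against 746 CPM).

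On the higher side, the signal peptidase subunit Spcs2 was at 363, 272, 500 and 451 CPM in osteolineage-like cells against 154, 266, 184 and 251 in CAR-like cells. It was above on each plate, narrowly on the second, and 1.11 above the median of all genes. Without the mixed cells Spcs2 stood at 320, 278, 433 and 555 CPM. Ddit3 was at 55.2, 17.4, 268 and 223 CPM against 27.3, 3.57, 69.3 and 48.7. It was higher in osteolineage-like cells on every plate and higher in both classes on the CD61- plates. Without the mixed cells its osteolineage-like values were 73.1, 18.9, 316 and 274 CPM. Creb3l1 was at 179, 118, 68.7 and 8.58 CPM against 18.2, 5.49, 29.6 and 24.6. It was high in osteolineage-like cells on 3 plates and low on the last, which held 3 such cells, so it did not meet the rule despite a 5.13-fold ratio of sums (6.17-fold without the mixed cells). Kdelr3 was at 329, 205, 47.4 and 0.68 CPM against 48.0, 13, 144 and 32.6. It was thus higher in osteolineage-like cells on the CD61+ plates and lower on both CD61- plates.

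**Figure D3:**
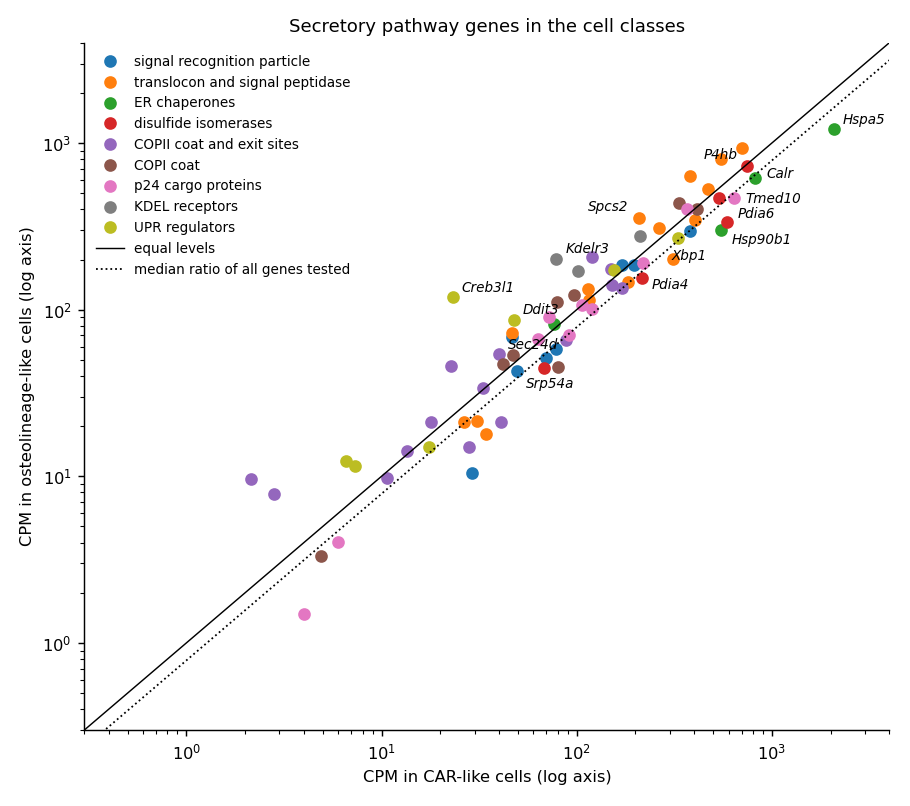
CPM of the 75 tested genes in osteolineage-like cells (vertical, log axis) against CAR-like cells (horizontal, log axis), summed over the 4 plates and coloured by role. The solid line marks equal levels and the dotted line the median ratio of all genes; Creb3l1 and Kdelr3 lie far above both lines and Hspa5, Hsp90b1 and Pdia6 below both.

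The gates were also set side by side within each class, as values only. There were 19 CD61+ and 6 CD61- osteolineage-like cells, of which 3 and 2 were mixed cells, and 20 and 34 CAR-like cells, none of them mixed. In CAR-like cells the members' median log2 ratio was -0.05, below the 0.13 of all genes. In osteolineage-like cells it was 0.54 against 0.15, and 0.39 against 0.37 without the mixed cells, which leaves 16 and 4 cells.

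Copa was higher in CD61+ cells in both classes, at 140 against 25.1 CPM in osteolineage-like cells (126 against 29.4 without the mixed cells) and 115 against 64.4 in CAR-like cells. Copb2 was at 67.1 against 12 CPM in osteolineage-like cells and 78.3 against 33.5 in CAR-like cells. P4hb was at 804 against 496 and 986 against 642 CPM. Ddit3 was lower in CD61+ cells in both classes, at 34.4 against 245 and 17.4 against 60.8 CPM. Kdelr1 had overlapping plates in osteolineage-like cells (177 against 149) and was higher in CD61+ CAR-like cells (189 against 64.2). Creb3l1 was higher in CD61+ osteolineage-like cells (145 against 37.9) and lower in CD61+ CAR-like cells (12.9 against 27.6). Without the mixed cells these genes stood on the same sides, Kdelr1 again with overlapping plates. The differences between the classes were not tested.

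Across single cells, the members' mean log2(CPM + 1) followed the number of genes detected (Spearman rho 0.80 over 88 cells) and less so the total counts (0.43) and forward scatter, a measure of cell size (0.42). With Col1a1 the rho was 0.45 over all cells, 0.80 in 21 osteolineage-like and 0.18 in 58 CAR-like cells, mixed cells left out. When summed CPM was used in place of mean logs, the rho with Col1a1 fell to 0.19 and that with genes detected to 0.14 over all cells. In osteolineage-like cells the translocon genes followed Col1a1 most closely (0.87), then COPII (0.77), the disulfide isomerases (0.72), COPI (0.69) and the KDEL receptors (0.62). The regulators (0.49), the p24 proteins (0.41), the chaperones (0.31) and the signal recognition particle (0.18) had lower values. With summed CPM the order differed, with COPII at 0.59, the KDEL receptors at 0.56, the translocon genes at 0.49, the disulfide isomerases at 0.42, COPI at 0.34 and the chaperones at 0.17. Creb3l1 had a rho with Col1a1 of 0.72 in osteolineage-like and 0.09 in CAR-like cells, and Kdelr3 of 0.79 and 0.25. These cells share plates and depth, and the correlations are descriptions without a p.

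Among pairs of members, the leading values over the 88 cells were those of Hspa5, Hsp90b1, Calr and Pdia6. The highest rho of 1770 pairs was that of Hspa5 and Pdia6, 0.55 over 88 cells, 0.46 in CD61+ and 0.52 in CD61- cells. Calr with Pdia6 (0.52), Hsp90b1 with Hspa5 (0.52) and Calr with Hspa5 (0.50) came next, against a median of 0.07 over the pairs. These 4 genes belong to the 5 whose promoters carry the ER stress element shown above, and Canx, the fifth, was in none of the leading pairs. Over all 10 pairs of the 5 the median rho was 0.34 (0.04 to 0.55), against 0.07 over 2850 pairs of all members. Within CD61+ cells the medians were 0.45 and 0.06, and within CD61- cells 0.31 and 0.06. The 5 genes had a count in 78 to 87 of the 88 cells, and other members in as few as 5 cells. The pairs compared thus differ in detection, and the part of this in the gap was not tested. The next pairs, Srp54a with Srp54b (0.48) and Tmed10 with Tmed10-ps (0.46), are the families that share sequence. Within CAR-like cells the order differed. There Hspa5 with Pdia6 was at 0.35, Calr with Pdia6 at 0.35, Hsp90b1 with Hspa5 at 0.27 and Calr with Hspa5 at 0.33. Srp54a with Srp54b (0.52) and Sec61a1 with Tmed2 (0.46) were above these in CAR-like cells. In osteolineage-like cells the pairs of Hspa5, Pdia6, Calr and Hsp90b1 were at 0.52, 0.51, 0.74 and 0.78, in the same order.

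**Figure D4:**
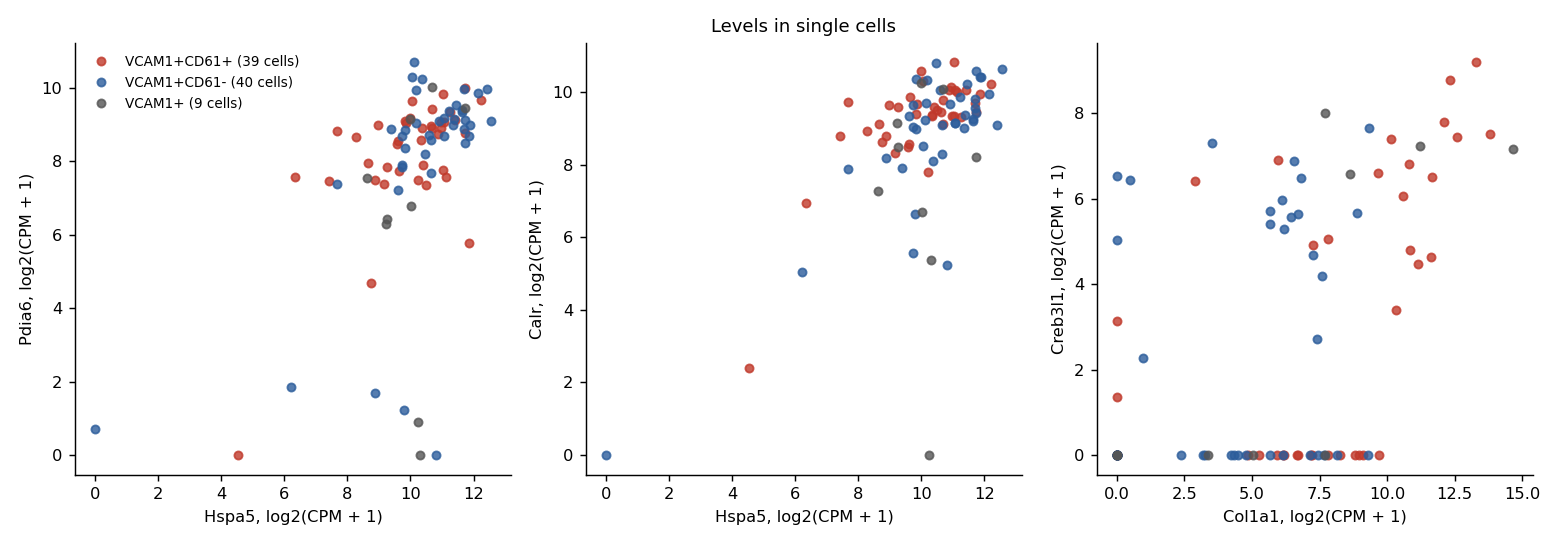
Log2(CPM + 1) in single cells: Pdia6 against Hspa5, Calr against Hspa5, and Creb3l1 against Col1a1, with cells coloured by gate. Pdia6 and Calr are higher where Hspa5 is higher in CD61+ cells (rho 0.46 and 0.56) and in CD61- cells (0.52 and 0.59). Over 88 cells the rho is 0.55 and 0.50, and none was taken within the VCAM1+ cells alone. Many cells have Col1a1 without a Creb3l1 count.

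Outside the members, the genes most like the 9 chaperones and disulfide isomerases over the 88 cells were named by their rho with the mean log level of those 9. Of 4009 genes counted in at least 50% of cells and outside the pathway lists, the highest were Syde1 (0.50), Gatd1 (0.46), Fst (0.46) and Golt1b (0.45). They were followed by Agt, Scara3, Clu, Atp6ap1, Gpc4 and Ghr, the last at 0.42, against a median of 0.11. From the pathway lists, the disulfide isomerase Txndc5 (0.48) and Serpinh1 (0.45) were the most alike.

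A shorter motif, the unfolded protein response element (TGACGTGG, either strand, which contains the CCACG end of the ER stress element on its other strand), was searched after the gate values had been seen. It was found in 6 of 64 member promoters (9.38%), those of Copb1, Copb2, Kdelr3, Sec16b, Sec23a and Sec24d, and in 193 of 27025 genes (0.714%). Of these 6, all but Sec24d were higher in CD61+ cells. Over all 97 tested genes with the motif, 23 (23.7%) were higher and 18 (18.6%) lower, near the shares of all genes. In single cells the 15 pairs among the 6 had a median rho of 0.06. The matches that lie wholly upstream of the start are shown, because they are transport genes and 3 of the 4 were higher in CD61+ cells, with the motif in capitals.

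Copb1, chr7:114254681-114254738, minus strand, 28 to 21 bases upstream:
Copb1: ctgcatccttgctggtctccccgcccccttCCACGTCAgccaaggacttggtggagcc
Kdelr3, chr15:79516348-79516407, plus strand, 30 to 23 bases upstream:
Kdelr3: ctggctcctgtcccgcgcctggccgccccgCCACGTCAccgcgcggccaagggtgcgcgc
Sec16b, chr1:157506722-157506789, plus strand, 44 to 37 bases upstream:
Sec16b: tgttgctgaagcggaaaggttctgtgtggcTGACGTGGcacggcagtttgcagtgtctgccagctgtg
Sec24d, chr3:123267440-123267495, plus strand, 26 to 19 bases upstream:
Sec24d: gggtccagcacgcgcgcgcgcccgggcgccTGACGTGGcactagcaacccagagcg

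The 9 VCAM1+ cells had a summed level of 14681 CPM for the members, with cells from 10068 to 18168 (median 14211). Hspa5 was at 1127 CPM, P4hb at 563, Creb3l1 at 97.6, Sec23a at 65.8, Copa at 187 and Ddit3 at 88.7. Sec23a and Creb3l1 were thus above the CD61+ sums and Ddit3 near the CD61- sum. Of these cells 4 were mixed cells with endothelial genes, and the group was not compared further.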

How the data were processed

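The submitters' processing notes name kallisto 0.43.0, R 3.5.1 and build mm10; which annotation served kallisto was not given in the sources used here. Values in the authors' table are expected counts, estimated reads per gene and cell, without normalisation and all whole. The authors' deposited genes per cell are a count of genes with at least 4 counts. Forward scatter is a linear intensity that the authors deposited for each cell. Of the deposited columns, 46 were not used.

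Counts were summed over gate, plate or class and divided by the summed total (CPM). Genes needed at least 10 counts and 5 cells, which left 14063. Sums under 3 counts were raised to 3 for ratios. The 88 assigned cells were clustered on 2000 variable genes, 15 components, 10 neighbours and Leiden resolution 1, after 261 genes (members and lists) were dropped. A cluster was named from markers with at least 3 detected in 50% of its cells. No cell was removed and no doublet caller was run; 3 cells with conflicting labels were left out. Cells are not replicates and no animal is named, so no test was run. Gene positions and lengths came from GENCODE vM21 and promoters from RefSeq.

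The members and lists were chosen with earlier results of these data known. Named in the text were the 4 highest genes per role per kilobase, up to 8 per direction and comparison with the largest ratio, all regulators and all sparse members. Of each list up to 4 abundant genes were eligible; Plod2, Fkbp10, Fkbp14, Arf1 and other genes beyond these rules were chosen after their values were seen. The steps were tested on simulated data. Software was Python 3.11.15 with scanpy 1.11.5, igraph 0.11.9, scipy 1.17.1, pandas 2.3.3, numpy 2.4.6 and matplotlib 3.10.9, and R 4.3.3. Alternatives were TMM (edgeR 4.0.16) and DESeq2 1.42.0 size factors for scaling only, mean CPM over cells, other filters and denominators, thinning to 500000 counts, other clusterings, pseudocounts, and leaving out plates or cells.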

Additional observations from a re-analysis of the deposited data

Results flagged for a closer look

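Creb3l1 had opposite log2 ratios of CD61+ over CD61- in the 2 classes, 1.94 in osteolineage-like and -1.10 in CAR-like cells, with both plates of a gate on the same side within each class. Pdia6 was likewise 0.347 in osteolineage-like and -0.342 in CAR-like cells. In both cases the difference was not tested. There were 6 CD61- osteolineage-like cells, 2 of them mixed cells; without the mixed cells, with 4 such cells left, the osteolineage-like values were 1.83 and 0.345.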

How the results depend on the processing

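No paired analysis was possible because each gate is 1 sample, the plates of the gates carry no shared animal or day in the labels, and no test was run. Of the summary values under the alternatives, 100 moved little and 20 moved; of the values of named genes, 371 moved little, 25 moved and 3 reversed. Between gates, a minimum of 50 CPM left 13 members higher and 4 lower, and a total without collagen, Spp1, Sparc, Bglap and mitochondrial genes left 4 lower (26 higher). With that total 34.7% of members were higher and 5.33% lower, against 22.5% and 15.4% of all genes. Leaving out each plate gave 29 to 41 higher (38.7 to 54.7%) and 14 to 25 lower (18.7 to 33.3%), since fewer plates have to separate. Of all genes 32.5 to 41.8% were then higher and 31.5 to 37.5% lower. The members' median log2 ratio ran from 0.13 to 0.39, against -0.10 to 0.25 over all genes. Their summed ratio ran from -0.044 to 0.23. Between classes, clustering with all genes gave 6 higher (8.0%), against 3.74% of all genes, and 7 lower (9.33%), against 14.2%. TMM and DESeq2 scaling left 2 lower each (Pdia6 and Srp54c, 2.67%), against 13.5% and 12.6% of all genes. The other denominator left 5 lower (6.67%), against 14.8%. Leaving out each plate gave 3 to 11 higher and 13 to 17 lower. Copb2, lower on each plate but 0.18 in the summed class ratio, reversed to -0.17 with mean CPM, to -0.13 when thinned and to between -0.25 and 0.31 without 1 cell; the cause was not tested. With each cell thinned to 500000 counts, Sec22a had a count in 7 cells of each gate and Sec31b in 0 CD61+ and 3 CD61- cells, so levels of these sparse members rest on few cells.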

Other observations

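The 3 cells whose title and gate label disagree had 12232, 14424 and 15700 CPM of the members, with a count for 47, 59 and 60 of them. Their Hspa5 levels were 991, 2803 and 2247 CPM.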
